A study of Drosophila melanogaster with 4 samples.

Results

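The regions described here are compact stretches of RNA polymerase II enrichment that sit close together on the large autosome arms of Drosophila melanogaster. They were taken from the list of enriched regions deposited for the series as a whole, by 3 criteria. A region had to lie on 2L, 2R, 3L or 3R and span 2000 to 7999 bp. It had to overlap an enriched region in the list of each ChIP replicate. Fewer than 5000 bp had to separate it from the next enriched region on its left and on its right. Of the 5517 enriched regions of the series list, 690 met these criteria, and they are called clustered regions below. They made up 24.2% of the 2846 regions that met the criteria of arm, width and replicate overlap, which are called compact regions.

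The cells were CME-W1-Cl.8+, a male line also called Clone 8, which the labels trace to the dorsal mesothoracic (wing) disc of last-instar larvae. The line carries a clone number in its name, and the labels name no treatment, transgene or mutation. After formaldehyde fixation and sonication, chromatin was precipitated with the Abcam mouse monoclonal antibody ab5408 against the YSPTSPS repeat of the polymerase tail. The series holds 2 ChIP replicates and 2 input DNA libraries, all from this line; only ChIP lists were analysed. Whether the replicates came from separate cultures is not stated, so the standard deviations given may be technical. The lists hold no read counts, and the depth of the libraries is therefore unknown. The labelled cell type could not be set against marker genes, because the lists name no genes and no annotation on their build (FlyBase r5) was used. No sequence of a region is shown for the same reason.

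RNA polymerase II transcribes protein-coding genes and many non-coding ones. The tail of its largest subunit carries the heptad repeat that the antibody recognises, and its phosphorylation changes as the enzyme moves from the promoter into the gene. In ChIP, enrichment gathers at promoters, where Drosophila polymerase often pauses shortly after initiation, and extends along the bodies of actively transcribed genes. The Drosophila genome is compact, and active genes often lie side by side, so that neighbouring genes or neighbouring parts of 1 gene can give separate enriched regions a short distance apart. The lists do not tell these cases apart.

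The criteria used the widths, positions and calls of all 3 lists. The numbers, widths and gaps that follow are therefore descriptions of a selected set, and no p-value is given. Scores were not a criterion, but the regions had to be called in both replicates to be included. With 2 replicates a 2-sided exact sign-flip test could in any case give no p under 0.5. The score is the authors' value for each region, read as a log2 ratio, so that a difference of 1 is a 2-fold step. For a region of the series list, the score in a replicate is the mean over the replicate regions it overlaps, weighted by their widths.

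Clustered regions had lower scores than compact regions that stood alone. Their median score was 1.083 in replicate 1 and 1.081 in replicate 2, a mean of 1.08 ± 0.0015 (SD, n = 2). The 1314 compact regions with a close neighbour on 1 side had a median of 1.20 ± 0.0032. The 842 with no neighbour within 5000 bp on either side had a median of 1.25 ± 0.018. The order of the 3 sets was thus the same in both replicates, with the clustered regions lowest. The difference between clustered regions and those without a close neighbour was -0.15 in replicate 1 and -0.18 in replicate 2, a mean of -0.17 ± 0.02 (SD, n = 2), or 0.89 times the ratio on the linear scale. It was larger than the spread between replicates but small beside the spread between regions. In replicate 1 the quartiles were 0.78 and 1.52 for clustered regions and 0.84 and 1.83 for those without a close neighbour. In replicate 2 they were 0.72 and 1.58, and 0.83 and 1.92.

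Over all widths together, the difference was larger among strong regions than among weak ones. At the 5th percentile of the scores the clustered regions and those without a close neighbour differed by -0.013 ± 0.012 (SD, n = 2), which is about the spread between replicates. At the 25th percentile the difference was -0.083 ± 0.035. It grew to -0.33 ± 0.02 at the 75th percentile and -0.41 ± 0.01 at the 95th. Scores of 2 or more were reached by 8.84% of the clustered regions in replicate 1 and 12.6% in replicate 2. Among compact regions without a close neighbour the corresponding shares were 19.8% and 23.4%. The share with high scores was thus lower among clustered regions in each library. When each list was reduced to scores over its own median, which selects on the measure itself, 75 regions met the criteria and the difference in medians was -0.090 ± 0.045.

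**Figure D1:**
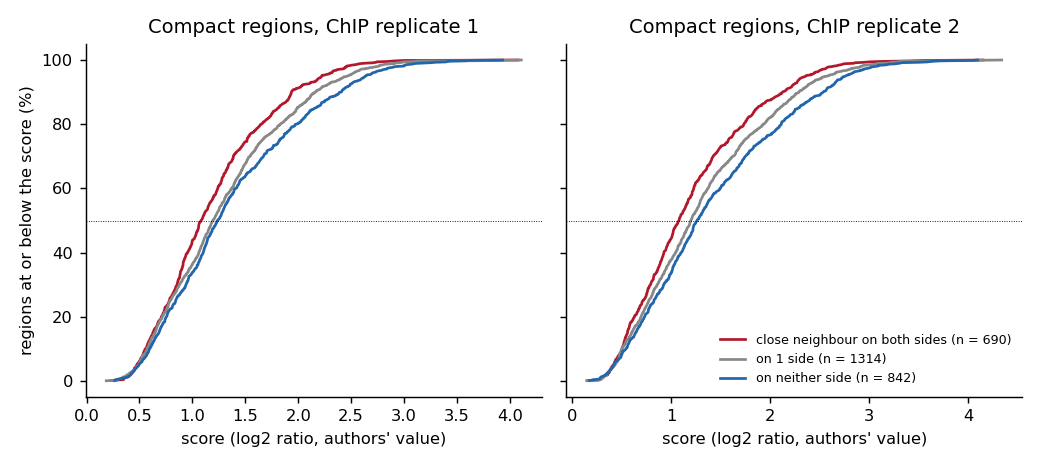
Cumulative share of compact regions (y axis, %) at or below each score (x axis, log2 ratio), for regions with a close neighbour on both sides, on 1 side and on neither side, in each ChIP replicate. The dotted line marks the median; the curve of the 690 clustered regions lies to the left of the others from the median to the 95th percentile in both panels.

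The difference was seen at each width. Clustered regions were wider than compact regions without a close neighbour, with a median of 3320 bp against 2521 bp, and wider regions scored higher among the clustered regions (Spearman's rho 0.41 in replicate 1 and 0.39 in replicate 2 across 690 regions of 1 library each, as a description). Among regions of 2000 to 2999 bp, the 295 clustered ones had a median score of 0.85 ± 0.03 (SD, n = 2) and the 531 without a close neighbour 1.14 ± 0.02. At 3000 to 4999 bp the medians were 1.18 ± 0.01 and 1.35 ± 0.03. At 5000 to 7999 bp they were 1.37 ± 0.04 and 1.48 ± 0.03. Clustered regions were the lower set in every width band and in both replicates, by -0.29 ± 0.05 in the narrowest band and -0.11 ± 0.01 in the widest. The weak end, which lay close together over all widths, differed among wider regions. At the 5th percentile the difference was -0.015 ± 0.011 (SD, n = 2) in the narrowest band, -0.12 ± 0.03 in the middle band and -0.21 ± 0.04 in the widest, and at the 75th percentile it was -0.53 ± 0.06, -0.33 ± 0.03 and -0.17 ± 0.03. Scores under 0.75 made up a larger share of the clustered regions than of those without a close neighbour in each band, with 41.02% ± 2.40 against 28.2% ± 0.7 in the narrowest and 8.70% ± 2.64 against 2.44% in the widest, where the latter share was the same in both replicates. Against regions with a close neighbour on 1 side, the difference in median score in the widest band changed sign between replicates, with -0.03 in replicate 1 and 0.01 in replicate 2.

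Clustered regions with the least room had the lowest median score and those with the most room the highest. The 143 clustered regions whose left and right gaps summed to under 2000 bp had a median score of 0.99 ± 0.0034 (SD, n = 2), and the 93 with 6000 bp or more had 1.16 ± 0.02. In between, the medians were 1.12 ± 0.0024 for 262 regions with 2000 bp to under 4000 bp and 1.06 ± 0.0026 for 192 regions with 4000 bp to under 6000 bp, so the 4 classes did not rise in step. Across all 690 regions, rho between the score and the summed gaps was 0.07 in each replicate. In order of rising room, the median widths of the 4 classes were 3639, 3266, 3003 and 3479 bp. The classes were not compared within width bands.

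The clustered regions were unevenly spread over the arms. The arm 2R held 220 of them, or 31.9%, at 10.4 per Mb. On 3R there were 190 (6.81 per Mb), on 2L 146 (6.34 per Mb) and on 3L 134 (5.46 per Mb). The density on 2R was 1.67 times that of the other arms together. With the same criteria applied to the list of each replicate, this ratio was lower, at 1.49 in replicate 1 and 1.39 in replicate 2. Regions of every kind were denser on 2R, at 51.3 per Mb in the series list against 40.2 to 42.2 on the other arms, and earlier results of these data already showed this. Of the compact regions on 2R, 28.7% were clustered (exact Clopper-Pearson 95% interval 25.5 to 32.0%), compared with 20.03% on 3L (17.1 to 23.3%), 23.8% on 2L (20.5 to 27.3%) and 23.9% on 3R (20.9 to 27.0%). These intervals treat regions as independent draws and overlap between 2R and each of 2L and 3R. Median scores of the clustered regions ran from 1.03 ± 0.02 (SD, n = 2) on 3R to 1.18 ± 0.02 on 2L.

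**Figure D2:**
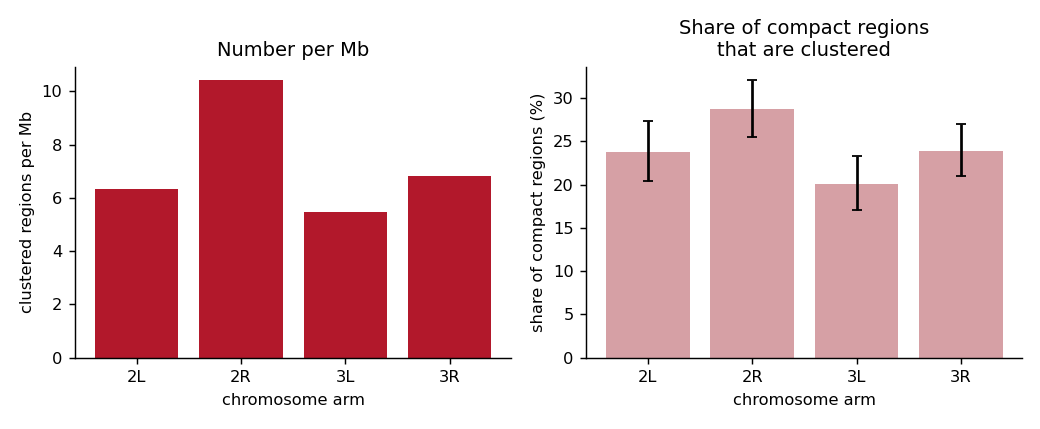
Left, clustered regions per Mb of each autosome arm (series list). Right, the share of compact regions that are clustered (%), with exact 95% binomial intervals as error bars; 2R is highest in both panels, at 10.4 per Mb and 28.7%.

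Along the arms the clustered regions were found almost everywhere, with a few dense districts. Of 95 windows of 1 Mb, 3 held none and the median window held 6. The 10 fullest windows held 167, or 24.2% of all clustered regions. The fullest lay on 2L (10000001 to 11000000), where 24 of 57 enriched regions were clustered. It was followed by windows on 2R that began at 19000001 (21 of 69) and at 9000001 (19 of 57). Across the windows, the number of clustered regions followed the number of all enriched regions of the series list, of which they are a part, with a Spearman's rho of 0.84.

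The gaps beside clustered regions were short, as the criteria required. There were 1133 of them, since adjoining clustered regions share a gap, and their median was 1611 bp (quartiles 617 and 2929 bp). In 247 gaps (21.8%) the regions were under 500 bp apart, and in 60 under 100 bp. Of all 4182 gaps between neighbours on the autosome arms, 459 (11.0%) were under 500 bp and 104 under 100 bp. The latter set includes gaps of 5000 bp or more, which the criteria exclude, so a higher share beside clustered regions is built in. The left and right gap of a region were unrelated, with a rho of -0.02 across 690 regions. The gaps were nevertheless seen in each library. A single replicate region spanned a gap and overlapped the regions on both sides in 14 gaps in replicate 1 and 8 in replicate 2. An overlap of 1 bp sufficed for a gap to count as bridged, so its 2 sides were not always merged. The share of bridged gaps was 0.97% ± 0.37 (SD, n = 2). When only replicate 1 was used, for the selection as well, the share was 1.47%. No gap was bridged in both replicates. Bridging was limited to narrow gaps, with 17 of the 22 bridged gaps under 200 bp and none at 1000 bp or more. In a further 172 gaps in replicate 1 and 184 in replicate 2, the region on one side was not called in that replicate at all, so the gap could not be bridged. Of the gaps with both sides called, 1.46% were bridged in replicate 1 and 0.84% in replicate 2.

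Although the gaps were kept, the edges of clustered regions were matched in a smaller share than those of regions that stood alone. This difference was not tested. The sets also differed in width, with medians of 3320 bp and 2521 bp, and their edges were not compared within width bands. A single replicate region with both edges within 500 bp of the series region, in both replicates, was found for 456 of the 690 clustered regions (66.1%). Among all compact regions the share was 73.8%, and among those without a close neighbour 705 of 842 (83.7%). The share was 57.8% of 268 clustered regions whose smaller gap was under 500 bp, 68.3% of 243 with 500 bp to 1.5 kb and 75.4% of 179 with at least 1.5 kb. The share was thus lower the closer the nearest neighbour lay. Unmatched edges lay inside the series region in more cases than outside it. The replicate region fell over 500 bp short of an edge in 19.1% of the clustered regions in replicate 1 and 20.9% in replicate 2, and in 8.19% and 6.89% of the compact regions without a close neighbour. It ran over 500 bp beyond an edge in 1.30% ± 0.20 and 0.36% ± 0.17. In at least 1 replicate, 53 clustered regions (7.68%) were overlapped by 2 or more replicate regions, against 6.89% of all compact regions. These counts include replicate regions that reach in from a neighbour, so they are not all splits.

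**Figure D3:**
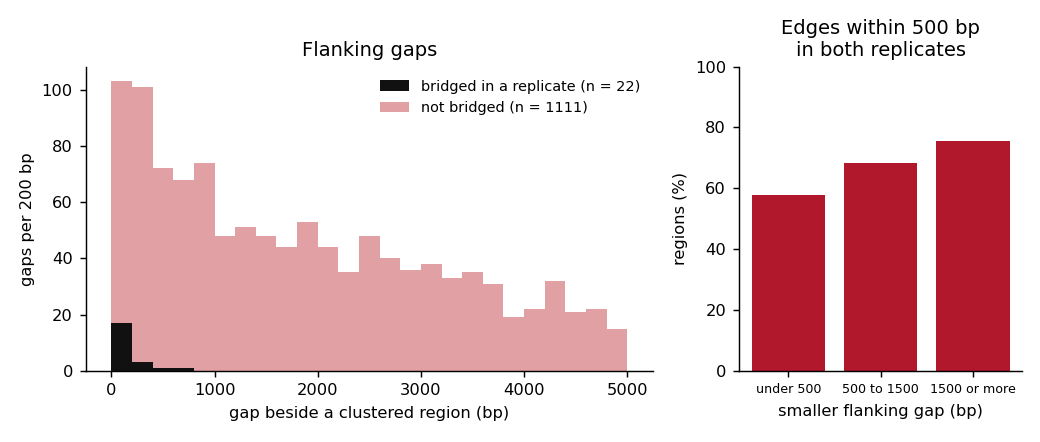
Left, the 1133 gaps beside clustered regions by size (x axis, bp; y axis, gaps per 200 bp), with the 22 gaps that a replicate region spans in black, all under 1000 bp. Right, the share of clustered regions (%) with both edges within 500 bp in both replicates, by the smaller of their gaps; it is 57.8% under 500 bp and 75.4% at 1.5 kb or more.

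The neighbours of clustered regions were a mixed set. Of the 1380 neighbour positions, 494 (35.8%) were filled by another clustered region and 465 (33.7%) by a compact region found in both replicates that did not itself meet the gap criterion. Regions under 2000 bp wide filled 257 (18.6%) and regions of 8000 bp or wider 133 (9.64%). The remaining 31 were of compact width but missing from a replicate. A region between 2 clustered regions is counted once for each. The wide neighbours scored 0.56 ± 0.0019 (SD, n = 2) more than the clustered region beside them, at the median. The narrow neighbours scored -0.63 ± 0.02 relative to it, where the replicate held them. Of the narrow neighbours, 204 were missing from at least 1 replicate and 117 from both. Compact neighbours that were found in both replicates but missed the gap criterion scored 0.09 ± 0.04 (SD, n = 2) more. In score, clustered regions thus lay between their broad and their narrow neighbours. In width they did so by the criteria, and the 2 were not separated here.

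Part of the crowding rested on neighbours that a replicate did not call. For 472 clustered regions (68.4%) both neighbours were found in both replicates, and the median score of these was 1.05 ± 0.01 (SD, n = 2). For the other 218, with a neighbour missing from a replicate, it was 1.18 ± 0.02. The difference from compact regions without a close neighbour was -0.20 ± 0.02 for the former and -0.07 ± 0.03 for the latter. When the same criteria were applied to the list of each replicate, 690 regions met them in replicate 1 and 672 in replicate 2. Of the 690 clustered regions of the series list, 516 (74.8%) overlapped such a region of replicate 1 and 476 (69.0%) one of replicate 2. This held in both replicates for 416 (60.3%), whose median score was 1.13 ± 0.01, and in neither for 114.

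Some clustered regions followed each other without interruption, which the criteria favour. The neighbour of a clustered region has a close region on 1 side by definition, so it needs only 1 more to meet the gap criterion. The share that this alone would give was not worked out. Of the 690, 97 (14.1%) had another clustered region on both sides and 300 (43.5%) on 1 side. Runs of 3 or more consecutive clustered regions numbered 61 and held 219 regions (31.7%, exact 95% interval 28.3 to 35.4%). The interval treats regions as independent draws, although the regions of a run enter the count together, and may be too narrow. Of these runs 24 lay on 2R, 15 on 2L, 12 on 3R and 10 on 3L. The longest comprised 8 regions, and there was 1 of 7, 3 of 6 and 1 of 5. With a gap limit of 3000 bp, 406 regions met the criteria and 17.0% of them stood in such runs.

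The run of 8 lay on 2L (10225542 to 10271054) and spanned 45513 bp, of which 70.6% was enriched. Its first region (10225542 to 10228452) scored 1.10 in replicate 1 and 1.16 in replicate 2. The second (10229898 to 10235204) scored 1.33 and 1.17, and the third (10238364 to 10243274) 1.23 and 0.88. The scores then dipped in the fourth (10245782 to 10248036), with 0.78 and 0.64. The fifth (10248912 to 10252178) was the strongest in both replicates, with 1.81 and 1.70. It was followed by the sixth (10254634 to 10256934) with 1.39 and 1.30. The last pair, at 10259846 to 10267772 and 10267806 to 10271054, lay only 33 bp apart. They scored 0.94 and 0.87, and 0.70 and 0.58, respectively, and stayed separate in both replicates. The fifth region was the strongest of the run and the eighth the weakest in both replicates.

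The run of 7 on 2R (9860030 to 9892200) was sparser, with 57.0% of its 32171 bp enriched, and it held both a strong and a very weak region. The fourth region (9876756 to 9880144) scored 2.32 in replicate 1 and 2.28 in replicate 2. The regions on either side of it, at 9869822 to 9872252 and at 9882052 to 9884540, scored 0.61 and 0.44, and 1.00 and 0.91. One strong region thus stood among weak ones. The first region (9860030 to 9862288) scored 0.42 and 0.52, and the second (9864792 to 9868450) 1.11 and 1.23. The sixth (9887246 to 9889266) had the lowest mean score of all clustered regions, with 0.51 and 0.16. The seventh (9890096 to 9892200) scored 1.03 and 0.39, a difference of -0.64 between the replicates.

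The third run, of 6 regions on 2R (2531270 to 2557918), had the highest mean score of the runs of its length. Its first pair of regions (2531270 to 2533716 and 2535078 to 2537538) scored 1.91 and 1.83 in replicate 1 and 2.01 and 1.84 in replicate 2. The next (2539364 to 2541650) was weak, with 0.60 and 0.56. It lay 337 bp from the fourth (2541988 to 2545780), which scored 1.29 and 1.21. The fifth (2547750 to 2552610) reached 2.22 in both replicates, and the sixth (2554276 to 2557918) scored 1.07 and 1.05. The largest difference between the replicates in this run was 0.10.

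**Figure D4:**
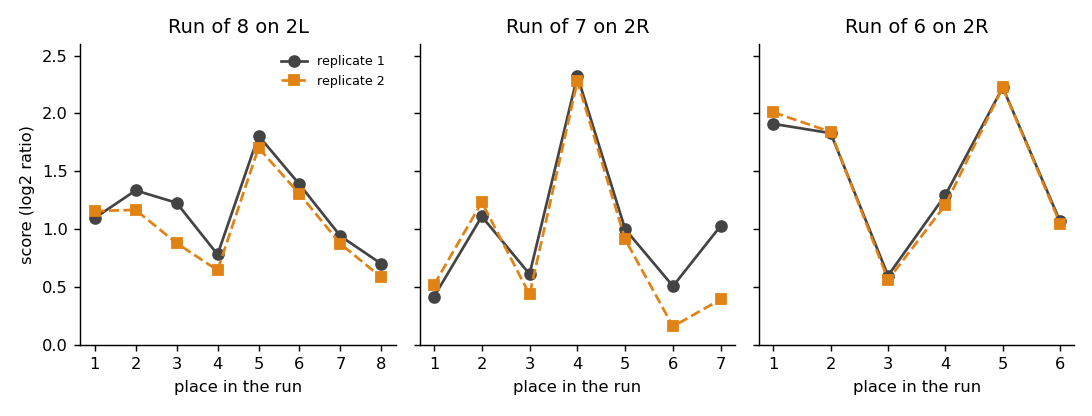
Scores (y axis, log2 ratio) of the regions in the 3 longest runs of consecutive clustered regions, by place in the run (x axis), in replicate 1 (circles) and replicate 2 (squares). Strong and weak regions stand side by side within a run, and both replicates show the same peaks, at place 5 in the run of 8, place 4 in the run of 7 and place 5 in the run of 6.

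Adjoining clustered regions were no more alike in score than distant ones. Across the 247 pairs of directly adjoining clustered regions, Spearman's rho between their scores was -0.03 in each replicate (-0.032 and -0.029). For regions 2, 5, 10 and 20 places apart along the arm it lay between 0.01 and 0.04 in both replicates. Adjoining pairs that shared no replicate region differed by a median of 0.53 in replicate 1 and 0.61 in replicate 2. Regions 10 places apart differed by 0.46 and 0.52. These values describe regions of the same libraries and carry no test. No relation between the scores of adjoining regions was thus seen at this gap limit. With a limit of 3000 bp the rho was -0.17 ± 0.06 (SD, n = 2).

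Where both neighbours had scores, clustered regions were the weakest of their surroundings in somewhat more cases than the strongest. Compact regions in general showed the reverse, and neither was tested. Among the 521 clustered regions whose neighbours both had a distinct score in replicate 1, 157 (30.1%) scored highest of the 3 and 173 (33.2%) lowest. Over compact regions the shares were 35.2% and 29.1%. In replicate 2 the shares among 516 clustered regions were 28.3% and 34.3%, against 35% and 29.8%. Regions with a neighbour missing from the replicate are left out of these counts. In the series list, 231 of the 235 neighbour positions missing from a replicate scored lower than the clustered region beside them. A clustered region left out was therefore rarely the lowest of the 3 by series score. The order over all clustered regions may thus differ from that given here.

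The replicates gave the clustered regions similar scores. Spearman's rho between the replicates was 0.93 across the 690 regions and 0.94 across the 842 compact regions without a close neighbour. A difference of 0.5 or more was found for 22 clustered regions (3.19%), against 3.51% of all compact regions. Replicate 2 was higher for 330 (47.8%), against 51.3%. Replicate 2 was higher for 57 of the 173 clustered regions with a mean score under 0.75 (32.9%), against 35.3% of the compact regions in that range. It was higher for 54 of the 72 with a mean score of 2 or more, against 75.4%. The shares of the clustered regions were thus near those of all compact regions in both ranges.

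The strongest clustered region lay on 2L (13214654 to 13217394), was 2741 bp wide and scored 4.08 in replicate 1 and 4.15 in replicate 2. Its left neighbour, at 1427 bp, was an 11055 bp region with 2.27 and 2.31, and its right neighbour, at 1337 bp, a 2301 bp region with 1.18 and 0.95. A peak of this height thus stood between regions of far lower score. The next highest mean score, 3.198, belonged to a 7413 bp region of 2L (7997810 to 8005222), which scored 2.85 and 3.54. Its neighbours, both clustered regions as well, scored 1.94 and 1.61 on the left and 1.95 and 1.89 on the right. The third, on 2R (2764806 to 2767286), scored 2.90 and 3.13. It was the middle one of 3 regions in otherwise empty surroundings, since the next region beyond its left neighbour was 56081 bp away and that beyond its right neighbour 40259 bp. On 3R, a 5323 bp region (10953486 to 10958808) scored 2.44 and 3.41. The region called in replicate 1 (10953282 to 10958783) covered nearly all of it, and that of replicate 2 (10956304 to 10958788) only the right part, so the scores refer to different lengths. The fifth, also on 3R (5529142 to 5532300), scored 2.99 and 2.85.

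At the weak end, a 2357 bp region on 3L (17950112 to 17952468) scored 0.37 in replicate 1 and 0.30 in replicate 2. In the series list it lay 451 bp from one of the stronger regions of that arm (17952920 to 17956014), with 2.76 and 3.16. The replicate regions with these scores lay further apart, ending and beginning at 17952434 and 17953405 in replicate 1 and at 17952233 and 17953550 in replicate 2. On 2R, a region of 3013 bp (12093530 to 12096542) scored 0.35 and 0.33, and its right neighbour at 101 bp (12096644 to 12098986) 1.44 and 1.47. The replicate regions within the former began only at 12094586 and 12094757, so its scores refer to its right part. Weak clustered regions could therefore adjoin strong ones within a few 100 bp in the series list.

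By the gaps of the series list, the most tightly enclosed clustered region lay on 3L (17835512 to 17838024), with 89 and 13 bp. It scored 0.60 in replicate 1 and 0.74 in replicate 2. Its left neighbour (17833576 to 17835422) was not called in replicate 1 and scored 0.27 in replicate 2. Its right neighbour at 13 bp (17838038 to 17843906) scored 1.24 and 1.64. On 3R, a region with gaps of 135 and 3 bp (14227330 to 14229972) scored 0.54 and 0.53. Its left neighbour scored 2.36 and 2.37, and its right neighbour 0.50 and 0.55. On 2R, a region with gaps of 33 and 149 bp (9388566 to 9391898) scored 1.72 and 1.82, and its neighbours 0.48 and 0.54 on the left and 1.38 and 1.35 on the right. Regions nearly in contact in the series list could thus differ widely in score or, as in the pair 3 bp apart, hardly at all. The replicate regions that carry the scores could lie further apart. In the pair 3 bp apart, they ended and began at 14229643 and 14230063 in replicate 1, and at 14229951 and 14230347 in replicate 2. On the left of the 2R region they did so at 9387751 and 9388545, and at 9387683 and 9388618.

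The largest difference between replicates belonged to a 2199 bp region on 2L (21463342 to 21465540), which scored 1.38 in replicate 1 and 3.00 in replicate 2. It proved to be part of an evenly spaced series. In a search made after these values were seen, 3 of 4178 sets of 3 neighbouring autosomal regions had widths within 20 bp of each other and start-to-start distances within 20 bp, and all of them came from the same 5 regions of 2L. These regions were 2187 to 2201 bp wide and began 5042 to 5060 bp apart, with no further region for 109 kb to the left and 24.0 kb to the right. The 3 clustered ones among them had gaps of 2845 to 2859 bp. The second (21468386 to 21470584) scored 1.92 and 2.94, and the third (21473432 to 21475622) 1.27 and 2.29. Replicate 2 was higher by 1.02 to 1.62 in all 3, and of the 690 clustered regions 4 differed by 1 or more in this direction. The outer region on the left (21458282 to 21460482) was in neither replicate list, although the series list gave it a score of 2.97. The one on the right (21478474 to 21480660) scored 1.03 and 1.82. How reads that match several places were treated is not given in the sources used here. As background, the histone genes of Drosophila form a tandem array on 2L. Whether these regions belong to it was not examined, for lack of an annotation on this build.

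The other large differences had other forms. A 3375 bp region on 2L (112076 to 115450) scored 1.37 in replicate 1 and 0.28 in replicate 2. In replicate 1 it was overlapped by 2 regions, one of which also covered its left neighbour with 2.10 in replicate 2 and 1.73 in replicate 1, so the value of replicate 1 includes the neighbour. A 5375 bp region on 2R (3470290 to 3475664) scored 1.11 and 2.20 and had nearly the same edges in both replicates. Its left neighbour in the series list (3466758 to 3469822) was in neither replicate list.

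**Figure D5:**
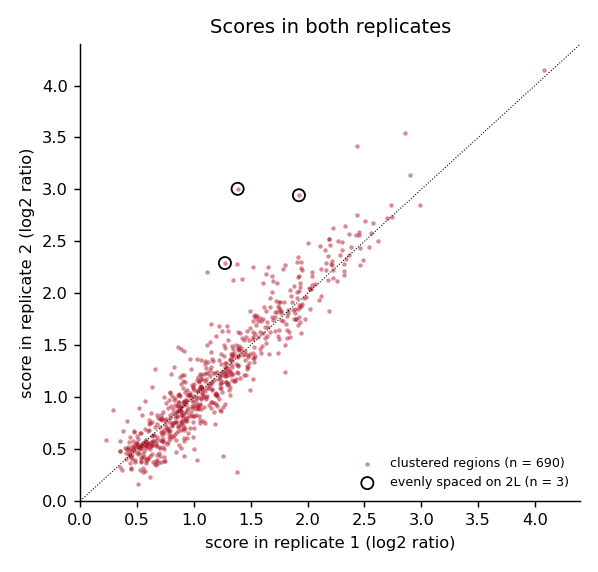
Score of each of the 690 clustered regions in replicate 1 (x axis) and replicate 2 (y axis), both log2 ratios; the dotted line marks equal scores. The 3 circled points are the evenly spaced regions on 2L, which lie 1.02 to 1.62 above the line.

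Regions close to the thresholds are given by their mean score over both replicates. The narrowest clustered regions, on 2R (3405826 to 3407826, 2001 bp) and on 2L (20641774 to 20643778, 2005 bp), had mean scores of 0.37 and 0.43. Just too narrow were regions on 2L (18953412 to 18955408, 1997 bp) and on 2R (3327416 to 3329408, 1993 bp), with 0.36 and 0.35. The widest clustered regions were 7927 bp (2L, 10259846 to 10267772) and 7905 bp (3L, 7315490 to 7323394) with 0.91 and 1.14. Just too wide were regions of 8105 bp (3R, 25834210 to 25842314) and 8147 bp (2R, 5081164 to 5089310) with 1.63 and 2.44. The largest gaps kept were 4999 bp, beside a region of 2L (354092 to 356122) with a mean score of 0.69, and 4993 bp, beside another of 2L (551276 to 554754) with 2.04. Just outside lay a region of 3R (14229976 to 14232194) with a gap of 5013 bp and a score of 0.53, and 1 of 3L (17016512 to 17018612) with a gap of 5029 bp and 0.70.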

How the data were processed

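ChIP-seq of RNA polymerase II in 1 cell line gave 3 region lists, namely 1 per ChIP replicate and 1 for the whole series. The aligner was Bowtie 0.12.7 (per the submitters' processing notes), and positions are on FlyBase r5, per the file headers. How regions were called, with which cut-offs, and how the inputs and replicates entered is not given in the sources used here. The deposited score is read as a log2 ratio from its values: in the series list, 433 of 5356 pairs of recurring scores lay, within 1e-07, a base-2 logarithm of a ratio of integers (at most 40) apart, against 1 with natural logarithms and 5 with base 10. Its numerator and denominator are unknown.

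Regions named as depleted were left out; none of the 17 in the series list lay in a gap beside a clustered region. Gaps were counted in bases between neighbouring enriched regions, and the first and last region of an arm were not used. Overlap meant 1 bp or more. Computations used Python 3.11.15, pandas 2.3.3, NumPy 2.4.6 and SciPy 1.17.1, and the code was tested on simulated lists. The regions, lists and criteria were chosen with earlier results of these data known. Regions named are the 5 highest and 3 lowest in score, the 3 longest runs, the 3 with the smallest gaps, the 3 with the largest difference between replicates and those nearest each threshold; the evenly spaced series on 2L was chosen after its values were seen. Alternatives were other gap limits, a reciprocal overlap, higher scores and single replicates.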

Additional observations from a re-analysis of the deposited data

How the results depend on the processing

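Of 56 alternative values over 7 results, 25 stayed within the spread between replicates, the binomial interval or, for the number of regions, 1.5 times; 31 moved and none changed the sign of the score difference. A gap limit of 3000 bp left 406 clustered regions and a median score of 1.06, a rho of -0.17 between adjoining regions, 17.0% of regions in runs of 3 or more and a density ratio of 2R to the other arms of 1.48. A limit of 8000 bp gave a median of 1.10, a rho of -0.043, 39.9% in runs and a ratio of 1.54. With a reciprocal overlap of 50% the median score was 1.11, the rho -0.047 and the share of bridged gaps 0%, since a region that spans a gap and its surroundings cannot then match both sides. Keeping only scores above the median of each list, which selects by the value compared, left 75 regions with a median score of 1.69, a difference from regions without a close neighbour of -0.090, a rho of 0.14 ± 0.29 (SD, n = 2) and a density ratio of 2.01. Single replicates, each with its own selection, gave 708 to 712 regions, medians of 1.059 to 1.063, score differences of -0.20 to -0.17, bridged shares of 0.94% to 1.47%, a rho of -0.039 to -0.029, density ratios of 1.65 to 1.66 and 31.4% to 32.7% of regions in runs.

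The following alternatives were chosen after seeing the data. The score difference was -0.29 at widths under 3000 bp and -0.11 at 5000 bp or more. It was -0.12 for clustered regions that also met the criteria in both replicate lists (median score 1.13) and -0.20 for those whose neighbours were found in both replicates (median 1.05). Without pairs that share a replicate region, rho was -0.033. With the criteria applied to the replicate lists, the density ratio of 2R was 1.487 in replicate 1 and 1.386 in replicate 2. No paired analysis was possible because the 2 ChIP libraries are the only ones with values and belong to 1 group. With depth unknown, a missing neighbour cannot be told from one too thinly read to be called. The cause of the shifts other than that of bridging under reciprocal overlap was not tested.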

Other observations

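The clustered regions were also grouped by the longer stretches they belong to, in which every enriched region of the series list lies under 5000 bp from the next. The autosome arms held 2156 such stretches, single regions included, and 392 of them contained a clustered region. These had a median of 4 enriched regions and spanned a median of 21524 bp, of which 74.7% was enriched at the median. In 233 of the 392 there was just 1 clustered region. Only 12 stretches held 5 or more, and with 72 regions these accounted for 10.4% of all clustered regions.

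The stretches with most clustered regions were found on 2L and 2R. A stretch on 2L (10219676 to 10279694) had 8 among its 11 enriched regions, and one on 2R (9828322 to 9898038) had 8 among 12. Another on 2R (2511138 to 2564380) had 7 among 10. Further along 2L than the first lay a stretch with 6 clustered regions (10298594 to 10343972) and one with 5 (10373396 to 10440562). These 3 stretches of 2L lay within a single 1 Mb window, the fullest of all. The genes in it were not examined. The stretches are a description of the series list and carry no test.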
